A study of Rattus norvegicus with 16 samples.

Results

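The muscle miRNAs rno-miR-1, rno-miR-1*, rno-miR-133a, rno-miR-133a*, rno-miR-133b and rno-miR-206 (named below without the rat prefix) were followed in newborn rat hearts, 6 of the 677 rat miRNAs on the array. They were taken by name, as the products of the paired muscle genes miR-1/133a and miR-206/133b, and an asterisk marks the minor arm of a hairpin. The hearts came from 8 HHR pups (the Hypertrophic Heart Rat, labelled hypertrophic) and 8 NHR pups (the Normal Heart Rat, labelled normal), each strain with 4 females and 4 males aged 2 days. The labels name no treatment or engineered allele, and RNA from 1 animal went onto 1 Cy3 array without pooling. The tissue is called whole heart in one label and atrium-free ventricle in the design text, so heart muscle, vessel, connective tissue and blood RNA were measured together.

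miRNAs are short RNAs that pair through their seed, bases 2 to 8, with messenger RNAs and lower their output. miR-1 and miR-133a are made from shared primary transcripts in heart and skeletal muscle under muscle transcription factors such as SRF and MEF2. miR-1 is known for promoting muscle differentiation, miR-133a for restraining cardiomyocyte proliferation and growth. miR-206 and miR-133b are their counterparts from a locus that is chiefly active in skeletal muscle, where MyoD and myogenin act on miR-206.

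The mature sequences show how closely the members are related and which of them a probe must tell apart. They are those of RefSeq on the GRCr8 build, where all 6 array names were matched to an arm, and capitals mark the seed.
miR-1: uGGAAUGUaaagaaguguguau
miR-206: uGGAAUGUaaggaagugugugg
miR-133a: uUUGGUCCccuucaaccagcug
miR-133b: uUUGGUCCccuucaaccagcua
miR-1*: gCACAUACuucuuuauguaccc
miR-133a*: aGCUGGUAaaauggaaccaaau

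miR-1 and miR-206 share the seed GGAAUGU and 19 of 22 bases, with the substitutions A11G, A21G and U22G (miR-1 first, positions from the 5′ end). miR-133a and miR-133b share the seed UUGGUCC and 21 of 22 bases. They differ only by G22A, at the last base (miR-133a first). The minor arms have seeds of their own.

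The hairpins that give both arms are shown for the ratios between arms, with the arms read by the array in capitals.
Mir1: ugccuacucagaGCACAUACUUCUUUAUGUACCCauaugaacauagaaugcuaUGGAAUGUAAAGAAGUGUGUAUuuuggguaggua
Mir133a1: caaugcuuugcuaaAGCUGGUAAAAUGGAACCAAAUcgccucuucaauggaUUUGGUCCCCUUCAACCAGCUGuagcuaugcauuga

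In GRCr8, Mir1 lay at chr18:2160327-2160413 and Mir133a1 at chr18:2157872-2157958. Both were on the minus strand, 2368 bases apart, within the span of the ubiquitin ligase gene Mib1, which runs on the opposite strand. Mir206 (chr9:30590697-30590780) and Mir133b (chr9:30594582-30594665) were on the plus strand, 3801 bases apart, within the long non-coding RNA gene LOC120094648. miR-1b differs from miR-1 by G17A (miR-1 first). It was not analysed here, and whether it bound the miR-1 probes was not tested.

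Between 200 and 239 miRNAs were detected per array, and no spot was saturated. The array's 75th percentile of signal before scaling was 469.6 ± 37.3 on HHR arrays and 378.4 ± 87.3 on NHR arrays (SD, n = 8 each). Of the NHR arrays, 3 lay between 442.7 and 502.9, within the HHR range of 417.7 to 525.2, and 5 between 294.7 and 326.8. Signals below are scaled so that the 258 probes standing well above background throughout the 16 arrays have a common 75th percentile. Of 6 heart muscle markers, miR-499, miR-208* and miR-208b-3p were detected on all arrays, and miR-208 and miR-208b-5p on none. The liver markers miR-122 and miR-122* and the brain markers miR-124 and miR-9 were detected on no array.

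With the reported scaling miR-133b and miR-1* were lower in HHR hearts, and the other 4 members did not pass the test. The ratio of miR-133b to miR-133a on the same array, in which a single scaling factor per array cancels, was also lower in HHR. The miR-1* difference was not called in the unscaled signals and was -0.040 among the brighter arrays. The sign of the miR-133b difference depended on the scaling.

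miR-133b and miR-1 were the 2 brightest miRNAs on every array, miR-133b first on 15 arrays and miR-1 first on 1. Brightness also depends on the probe, so this order is one of signals and not of molecules. The scaled miR-133b signal ran from 5839 through a median of 6060 to 6497 in HHR hearts, and from 6466 through 6777 to 7272 in NHR hearts. HHR female 4 and HHR male 2 lay above the lowest NHR array, NHR female 3, and below the other 7 NHR arrays. miR-133b fell by 0.15 ± 0.031 on the log2 scale in HHR hearts, a 1.11-fold difference (SE, 8 arrays against 8, limma adjusted p = 0.00132). It was lower in females (-0.14 ± 0.044, adjusted p = 0.0246) and in males (-0.17 ± 0.044, adjusted p = 0.0157), and by -0.13 and -0.15 on its 2 probes. After scaling, miR-133b averaged 6590 on the 3 brighter and 6925 on the 5 dimmer NHR arrays, both above the HHR mean of 6127. With array brightness as a covariate the difference was -0.10 (limma adjusted p = 0.0298). Among arrays brighter than 400 it was -0.099, with NHR female 3 as the only NHR female. The fit weighs the sexes equally, so that array counted as much as NHR males 2 and 4 together. Within slides 1 and 2, which held 2 arrays of each group, the differences were -0.14 and -0.16 (adjusted p = 0.0810 and 0.0661).

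miR-1 had a scaled signal of 5414 at the lowest, 5751 at the median and 6217 at the highest in HHR hearts, and of 5494, 6248 and 6648 in NHR hearts. The ranges overlapped widely. NHR female 3 was the lowest NHR array, and the other 3 NHR females were above all 4 HHR females. The difference was -0.10 ± 0.041 (95% interval -0.19 to -0.012, adjusted p = 0.0526). The call turned on single arrays, since miR-1 passed as lower without NHR female 3 (-0.13), HHR female 4 (-0.12) or HHR male 3 (-0.11).

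miR-133a, with the seed and all but the last base of miR-133b, gave far dimmer probes. Its scaled signal was 290.4, 302.6 and 318.5 (lowest, median, highest) in HHR hearts and 300.2, 313.2 and 335.4 in NHR hearts. Whether either probe pair also bound the other miRNA, or whether the 2 names are exchanged in the array's annotation, was not tested, so the gap in brightness gives no ratio of molecules. The strains overlapped, with a difference of -0.059 ± 0.027 (95% interval -0.12 to -0.00080, adjusted p = 0.0788). miR-133a passed as lower without HHR female 4 (-0.070) or NHR male 2 (-0.072).

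miR-133a*, the other arm of the Mir133a1 hairpin, had a scaled signal of 230.9, 254.4 and 279.7 in HHR hearts and of 217.7, 268.2 and 301.1 in NHR hearts. The NHR range enclosed the HHR range. The difference was -0.046 ± 0.069 (95% interval -0.19 to 0.10, adjusted p = 0.580).

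**Figure D1:**
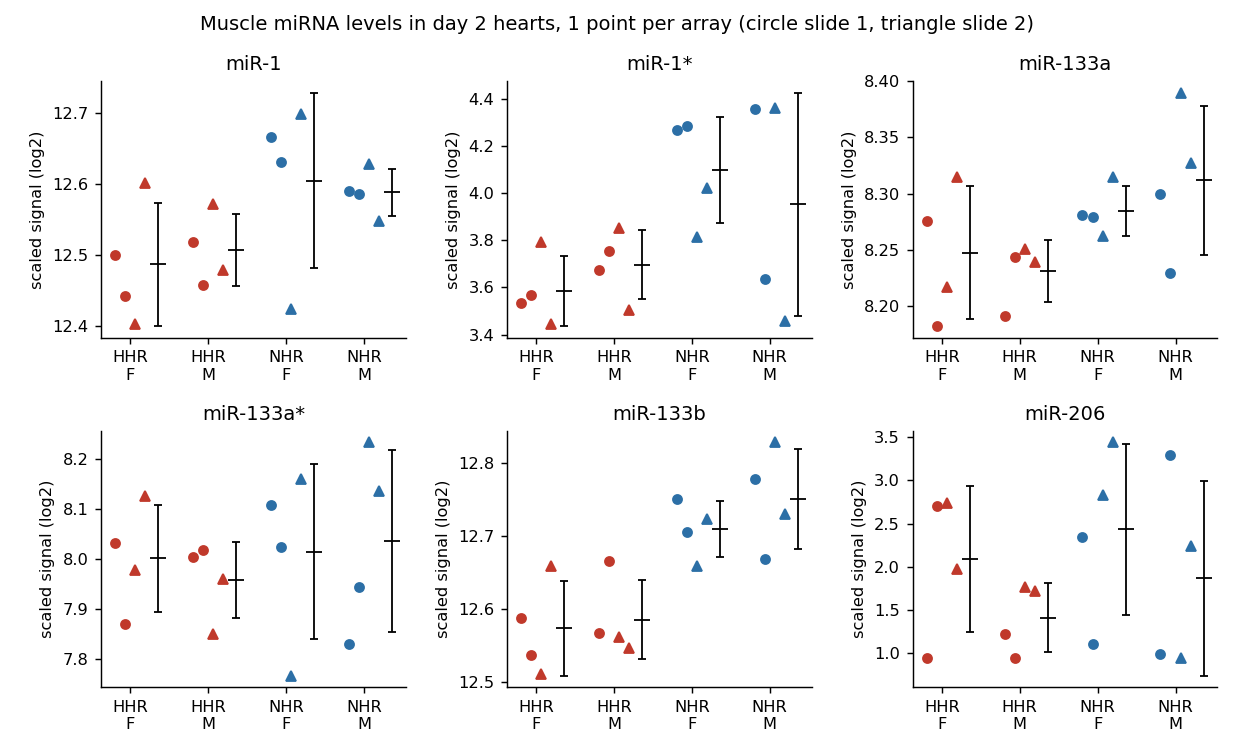
Scaled log2 signal of the 6 muscle miRNAs (vertical axes, each with its own range) by strain and sex (F female, M male), HHR in red left of NHR in blue, 1 point per array, with circles for slide 1 and triangles for slide 2; bars give the mean and SD of 4 arrays. miR-133b is lower in HHR on average (-0.15), and each member, miR-133b included, overlaps between the strains.

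A single scaling factor per array cancels in the ratio of 2 miRNAs on the same array, so 3 such ratios were compared between strains. A ratio of probe signals is not a ratio of molecules, and it was compared across arrays only. The log2 ratio of miR-133b to miR-133a, by name from the skeletal and the cardiac pair of genes, averaged 4.34 ± 0.043 in HHR hearts and 4.43 ± 0.030 in NHR hearts (SD, n = 8 each). Of the HHR arrays, 7 lay below the lowest NHR array, and of the NHR arrays, 5 lay above the highest HHR array, HHR male 2. Whether either probe pair also bound the other miRNA was not tested, so this ratio need not be one between the 2 loci. An exchange of the 2 probe names would turn its direction. The difference was -0.092, or 1.07-fold (p = 0.000777 by exact permutation over all 12870 splits, two-sided, with a Benjamini-Hochberg adjusted p = 0.00233 over the 3 ratios).

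On slide 1 the ratio ran from 4.31 to 4.42 in HHR hearts and from 4.43 to 4.48 in NHR hearts. On slide 2 it ran from 4.29 to 4.34 in HHR hearts and from 4.40 to 4.44 in NHR hearts. The strains were thus fully apart on each slide (differences -0.086 and -0.097, 4 arrays against 4). The exact permutation p was 0.0286 on each, the smallest that 4 against 4 allows, and 0.0857 after adjustment, so neither slide passed alone. With permutation within slides, the adjusted p was 0.00122. The female values were fully apart as well (-0.099, exact permutation p = 0.0286, 0.0857 after adjustment). The male values overlapped (-0.085, exact permutation p = 0.0571, 0.171 after adjustment). The 3 brighter NHR arrays had ratios of 4.40 to 4.44, against 4.41 to 4.48 on the 5 dimmer ones. With only the arrays brighter than 400 before scaling, 8 HHR and 3 NHR, the difference was -0.072 (exact permutation adjusted p = 0.127).

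The log2 ratio of miR-1 to miR-133a, products of the same primary transcripts, averaged 4.26 ± 0.051 in HHR hearts and 4.30 ± 0.084 in NHR hearts (SD, n = 8 each). The difference of -0.041 was smaller than the spread among NHR arrays (p = 0.252 by exact permutation, 0.379 after adjustment). The ratio between the arms of the miR-133a hairpin, miR-133a* to miR-133a, averaged -0.26 ± 0.071 in HHR hearts and -0.27 ± 0.14 in NHR hearts, a difference of 0.013 (p = 0.819 by exact permutation, 0.819 after adjustment). The arm ratio was lowest on NHR female 3 (-0.50) and NHR male 1 (-0.47). These p-values do not show that the strains are alike. A further ratio, miR-133b to miR-1, was added after the data had been seen. It averaged 0.083 ± 0.062 in HHR hearts and 0.13 ± 0.076 in NHR hearts, a difference of -0.050 that did not pass (p = 0.168 by exact permutation, unadjusted). The lower miR-133b in HHR was thus called within arrays against miR-133a and not against miR-1.

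**Figure D2:**
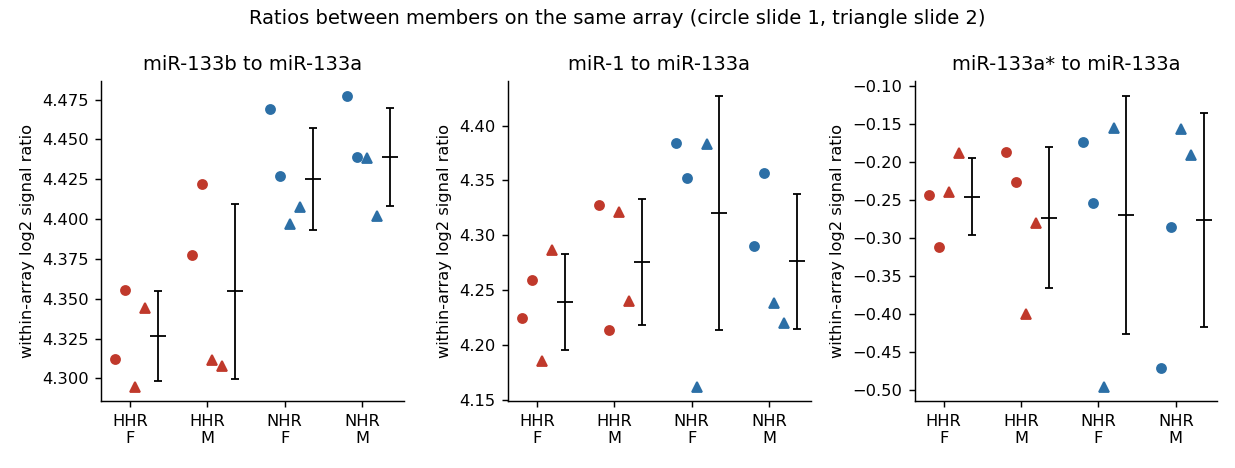
Within-array log2 signal ratios (vertical axes) by strain and sex (F female, M male), HHR in red left of NHR in blue, 1 point per array, circles for slide 1 and triangles for slide 2, with the mean and SD of 4 arrays. The miR-133b to miR-133a ratio is lower in HHR hearts on average (4.34 against 4.43), and each ratio, this one included, overlaps between the strains.

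miR-1*, the minor arm of the Mir1 hairpin, lay near background. The scanner software called it detected on all 16 arrays, but at least 1 of its 4 probes was well above background on 6 HHR and 8 NHR arrays. Its scaled signal was 10.9, 12.3 and 14.4 (lowest, median, highest) in HHR hearts and 11.0, 17.7 and 20.5 in NHR hearts. The 5 dimmer NHR arrays, 16.3 to 20.5, were above all HHR arrays, and the 3 brighter ones, 11.0 to 14.1, were in the HHR range. The fitted difference was -0.38 ± 0.13 (adjusted p = 0.0272), in females -0.51 ± 0.19 (adjusted p = 0.0397) and in males -0.26 ± 0.19 (adjusted p = 0.350).

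Before scaling, the miR-1* signal was 13.8 ± 0.841 in HHR hearts and 14.3 ± 1.64 in NHR hearts (SD, n = 8 each), with 14.2 on the 3 brighter and 14.3 on the 5 dimmer NHR arrays. The unscaled signal thus did not follow the brightness of the array, in contrast to miR-133b, which before scaling averaged 7465 on the brighter and 5170 on the dimmer NHR arrays. The miR-1* difference was -0.045 without scaling (limma adjusted p = 0.688) and -0.060 with brightness as a covariate (limma adjusted p = 0.664). It was -0.040 among arrays brighter than 400, with NHR female 3 as the only NHR female. The call was also lost when HHR male 4 (-0.35), NHR female 1 (-0.36), NHR female 2 (-0.35), NHR male 1 (-0.32) or NHR male 3 (-0.32) was left out. The ratio of miR-1* to miR-1 was not tested, since miR-1* was near background.

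**Figure D3:**
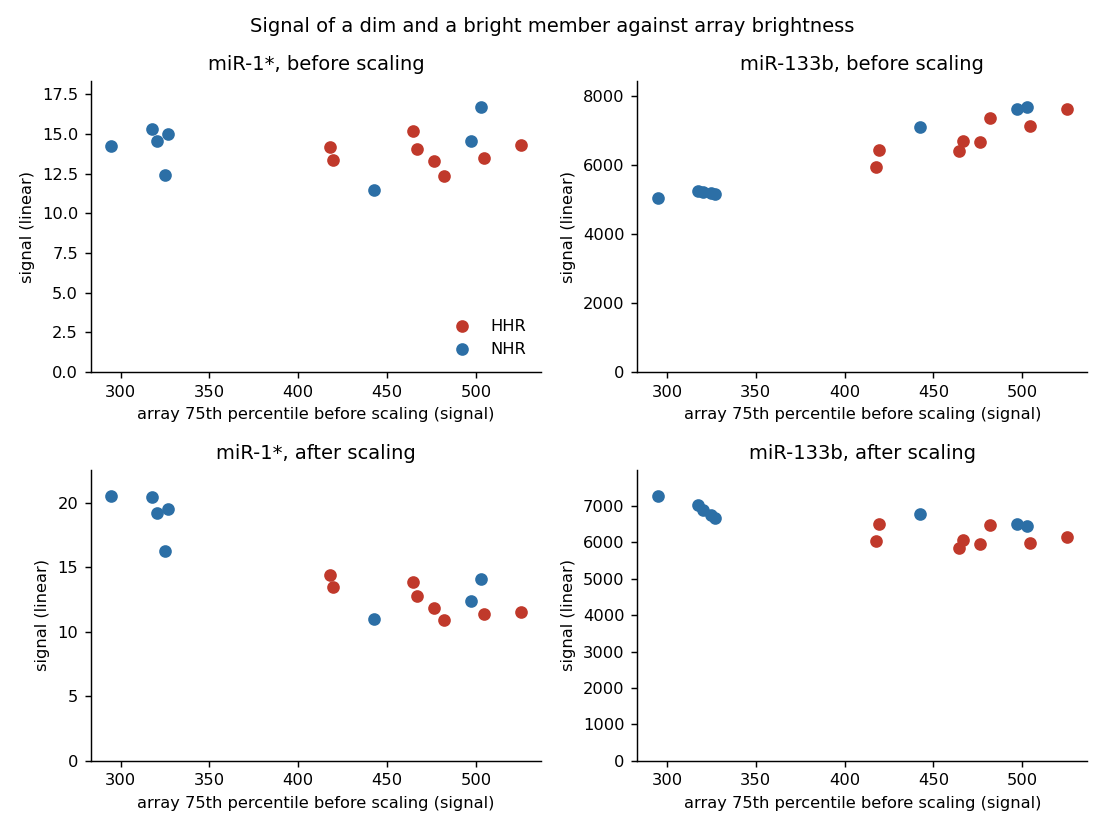
Signal of miR-1* (left) and miR-133b (right) against each array's 75th percentile before scaling (horizontal axes), before (top) and after scaling (bottom), 1 point per array, HHR in red and NHR in blue, vertical axes from 0. Before scaling miR-1* stays near 14 at any brightness while miR-133b rises with it; after scaling miR-1* is high only on the 5 dimmer NHR arrays.

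miR-206, the neighbour of miR-133b and the member most typical of skeletal muscle, was near background. None of its probes was well above background on any array, and it was called detected on HHR females 2 and 3, NHR female 4 and NHR male 2. On those arrays its scaled signal was 6.54 and 6.68 in HHR and 10.8 and 9.83 in NHR, and over all arrays it ran from 0.775 to 6.68 in HHR and from 1.69 to 10.8 in NHR. The fitted difference was -0.40 ± 0.42 (adjusted p = 0.417). miR-206 was thus not well above background in either strain, and no fold is given. miR-133b*, the other arm of the miR-133b hairpin and no member here, was detected on no array.

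In the strain comparison 2 of 6 members were called lower and 0 higher, where 54.5% of the 233 tested miRNAs were called, 45.5% lower and 9.01% higher. None of the members was fully apart between strains, where 11.2% of tested miRNAs lay fully below and 3% fully above NHR in HHR. The member median was -0.13 and that of all tested miRNAs -0.11. Relative to that median of all tested miRNAs, miR-133b stood at -0.044, miR-1 at 0.0064, miR-133a at 0.047 and miR-133a* at 0.061. In females 2 of 6 were lower, where 45.1% of tested miRNAs were called, 38.6% lower and 6.44% higher. In males 1 of 6 was lower, where 20.6% were called, 16.7% lower and 3.86% higher. The members' counts are thus not above those of the array as a whole. Fewer muscle cells and less of a miRNA per cell cannot be told apart in such tissue.

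The direction of the single members changed with the scaling. Without scaling the log2 differences were 0.19 for miR-133b, 0.24 for miR-1, 0.28 for miR-133a and 0.29 for miR-133a* (adjusted p from 0.0807 to 0.178), where the median of all tested miRNAs was 0.23. With the 75th percentile taken over every probe these 4 were called higher, where that median was 0.17, miR-133b by 0.13, miR-1 by 0.18, miR-133a by 0.22 and miR-133a* by 0.23 (adjusted p from 0.00259 to 0.0484). With quantile normalization they lay between -0.042 and 0.0088 and none was called. A single factor per array shifts all members alike, so such scalings cannot change the order of these 4 differences. With quantile normalization, which can, miR-133b (-0.00082) was not the lowest.

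**Figure D4:**
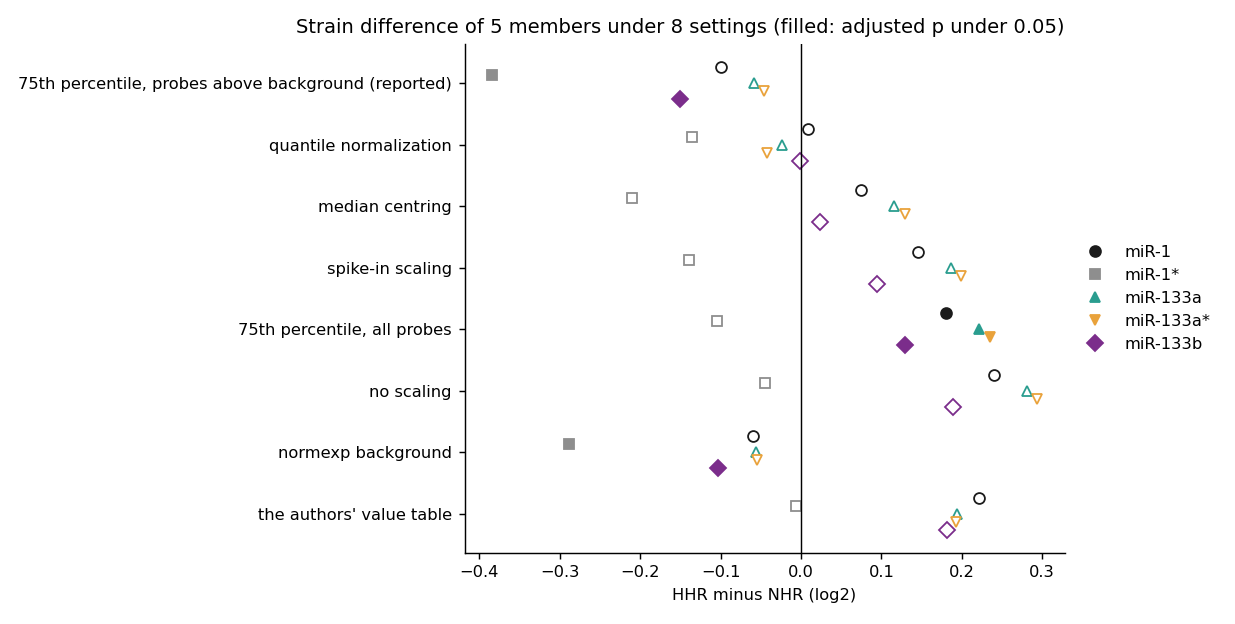
Log2 difference of HHR minus NHR (horizontal axis) for 5 members under 8 settings, filled where the adjusted p was under 0.05; miR-206 is not drawn because it lay near background. miR-1, miR-133a, miR-133a* and miR-133b move together with the scaling, from -0.15 for miR-133b as reported to 0.29 for miR-133a* without scaling.

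None of 6 was called between females and males by limma, 0 at an unadjusted p under 0.05, against 0% of the 233 tested miRNAs (23 unadjusted). None was called in the strain by sex interaction, 0 unadjusted, against 0% (9 unadjusted). The sex differences of the members other than miR-206 lay between -0.027 and 0.016.

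Among the other muscle miRNAs, 3 of 6 were tested and all 3 were lower in HHR with the reported scaling, where 45.5% of all tested miRNAs were called lower. They were miR-499 from the myosin gene Myh7b (a scaled signal of 154.1 ± 5.06 in HHR and 187.1 ± 5.61 in NHR, SD), miR-208* (17.0 ± 1.23 in HHR and 18.6 ± 1.36 in NHR) and miR-208b-3p (15.0 ± 1.21 in HHR and 16.8 ± 1.48 in NHR). Without scaling none of the 3 was called, at log2 differences of 0.060 for miR-499, 0.21 for miR-208* and 0.17 for miR-208b-3p. With quantile normalization miR-499 was called lower (-0.19, limma adjusted p = 0.00112), while miR-208* (0.11) and miR-208b-3p (0.075) were positive and not called. With the 75th percentile over every probe miR-499 (0.00046) and miR-208b-3p (0.11) were not called, and miR-208* was called higher (0.15). Among arrays brighter than 400, the differences were -0.30 for miR-499, -0.26 for miR-208b-3p and -0.15 for miR-208*. NHR female 3 was the only NHR female in that fit. With the reported scaling, the summed signal of the 6 heart muscle markers was 182.4 to 202.3 in HHR and 219.8 to 240.7 in NHR. Some sums of markers of other cell types, taken with the reported scaling only, also stood apart between the strains. Among all tested miRNAs 11.2% lay fully below NHR in HHR, and the median difference was -0.11. The summed signal of 2 endothelial markers was 982.2 to 1096 in HHR and 1178 to 1295 in NHR, that of 3 smooth muscle markers 1288 to 1361 in HHR and 1418 to 1504 in NHR, and that of 4 leukocyte markers 93.8 to 108.9 in HHR and 111.9 to 150.6 in NHR. Other sums overlapped, with 3 fibroblast markers at 1266 to 1688 in HHR and 1197 to 1475 in NHR, and 2 erythroid markers at 202.5 to 313.1 in HHR and 212.7 to 337.9 in NHR. The endothelial sum was mostly miR-126 (mean 1033 in HHR and 1183 in NHR), and the smooth muscle sum mostly miR-143 (1301 in HHR and 1418 in NHR). Of the lists of other cell types in these sums, miR-145* and miR-142-5p were detected on no array. The part of cell makeup in the muscle miRNA results was not tested.

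Across the 16 arrays, after subtraction of the 4 group means, miR-133a varied most like miR-133b (Pearson r = 0.75), miR-378* (0.72) and miR-466b-1* (0.67). miR-133b varied most like miR-92a (0.81), miR-378* (0.78) and miR-133a (0.75), and miR-133a* most like miR-133a (0.64), miR-652 (0.60) and miR-30d* (0.59). miR-1 varied most like let-7f (0.85), let-7d (0.80) and let-7a (0.74), and less like miR-133a (0.49) from the shared transcripts. The miRNAs of 1 array share its scaling factor, and arrays of 1 slide share that slide.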

How the data were processed

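Total RNA (100 ng per animal, per the labels' protocols) was read on 16 one-colour Agilent arrays, 1 per animal and 4 per group. The intensity values are those of the scanner output the authors deposited, from Agilent Feature Extraction 10.7.3.1 per the file headers, background-subtracted, with no scaling between arrays. Detection flags are other values, 0 or 1, in the same deposited files. A table of log2 values was also deposited by the authors. How it was normalized is not given in the sources used here. It entered only as an alternative.

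Outlier and control spots were left out, spots averaged per probe, arrays scaled to a common 75th percentile over 258 probes, probes averaged per miRNA on the linear scale, and values floored at 1.92 before log2. Tests covered the 233 miRNAs called detected by the software on 4 or more arrays, with limma 3.58.1 in R 4.3.3 (1 mean per group, Benjamini-Hochberg, threshold 0.05), which was tested on simulated data. Ratios between members with at least 1 probe well above background on every array were compared by exact permutation. Members, lists and tests were chosen with earlier results of these data known. Named miRNAs were the 6 members, 6 other muscle miRNAs and the 3 miRNAs most like each member. Alternatives changed the signal, background, scaling, filter, floor and arrays. The brighter-array subset, the ratio of miR-133b to miR-1 and other settings for miR-499, miR-208* and miR-208b-3p were added after seeing the data. The number of arrays limits the precision.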

Additional observations from a re-analysis of the deposited data

Results flagged for a closer look

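On NHR female 3 the log2 ratio of miR-1 to miR-133a was 4.16, against 4.35, 4.38 and 4.38 on the other NHR female arrays. The gap was 0.855 of the group's range, above Dixon's 95% critical value for 4 samples. It was the only such sample among 36 groups of 4 values examined, where chance marks about 1 in 20 groups.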

How the results depend on the processing

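The ratio of miR-133b to miR-133a stayed negative under the 29 alternatives run for it, from -0.10 to -0.012 (exact permutation adjusted p from 0.000466 to 0.972). Quantile normalization was not among them. There miR-133b (-0.00082) stood above miR-133a (-0.023), the opposite order. Of the 29, the total gene signal and both floors could not move the ratio: on each array the software's total gene signal of the members other than miR-206 was a fixed multiple of the averaged spot signal. Permutation within slides or within replicate numbers could not move it either and changed only its p. Its call was kept without any single array (-0.10 to -0.085) and lost with a normexp background (-0.046), whose offset by construction compresses dim probes, and in the authors' value table (-0.012), where the cause was not tested. It was also lost within slide 1 (-0.086), within slide 2 (-0.097), in females alone (-0.099) and in males alone (-0.085), where 4 against 4 allows an adjusted p of 0.0857 at the least, and on arrays brighter than 400 (-0.072). The ratio of miR-1 to miR-133a turned to 0.027 in the authors' value table, 0.0076 within slide 2 and 0.011 on the brighter arrays, and ran from -0.061 to -0.029 with arrays left out in turn. The ratio of miR-133a* to miR-133a turned to -0.0015 in that table and -0.027 within slide 2, and ran from -0.019 to 0.033 with arrays left out, negative without NHR female 3 (-0.019) or NHR male 1 (-0.015).

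The cause of the changes below was not tested. Fits to the brighter arrays held NHR female 3 as the only NHR female, so their differences and calls lean on that array. For the members other than miR-206 the total gene signal amounts to another percentile, taken over miRNAs and not probes. miR-133b was no longer called with the total gene signal (-0.088), quantile normalization (-0.00082), within slide 1 (-0.14), within slide 2 (-0.16), in males alone (-0.17) or on the brighter arrays (-0.099). It turned positive with the all-probe percentile (0.13), no scaling (0.19), median centring (0.024), spike-in scaling (0.095) and in the authors' value table (0.18). With arrays left out in turn it ran from -0.16 to -0.14 and stayed called. miR-1 turned positive with no scaling (0.24), the all-probe percentile (0.18), quantile normalization (0.0088), median centring (0.074), spike-in scaling (0.15), in the authors' table (0.22) and on the brighter arrays (0.0012). It was called lower with only miRNAs detected on all arrays (-0.10) and with averaged log2 probes (-0.097), and ran from -0.13 to -0.084 with arrays left out. miR-133a turned positive with the total gene signal (0.0032), the all-probe percentile (0.22), no scaling (0.28), median centring (0.12), spike-in scaling (0.19) and in the authors' table (0.19), and ran from -0.072 to -0.046 with arrays left out. miR-133a* turned positive with the total gene signal (0.017), the all-probe percentile (0.23), no scaling (0.29), median centring (0.13), spike-in scaling (0.20), in the authors' table (0.19), within slide 1 (0.0044), with brightness as a covariate (0.032) and on the brighter arrays (0.077), and ran from -0.087 to -0.013 with arrays left out.

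miR-1* lost its call with no filter (-0.38), the total gene signal (-0.32), quantile normalization (-0.14), the all-probe percentile (-0.10), no scaling (-0.045), median centring (-0.21), spike-in scaling (-0.14), in the authors' table (-0.0058), within slide 1 (-0.50), within slide 2 (-0.27), in males alone (-0.26), with brightness as a covariate (-0.060) and on the brighter arrays (-0.040), and ran from -0.47 to -0.32 with arrays left out. miR-206 was called only with a normexp background (-0.25), where the median of all tested miRNAs was -0.20. With arrays left out it ran from -0.62 to -0.16.

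The number of members called between strains, 2, was 1 with no filter or with brightness as a covariate, 4 (all higher) with the all-probe percentile, 3 with only miRNAs detected on all 16 arrays, normexp or averaged log2 probes, and 0 with the total gene signal, quantile normalization, no scaling, median centring, spike-in scaling, the authors' table, either slide, males alone or the brighter arrays. With arrays left out it ran from 1 to 4. In females, 2 became 1 with no filter or the all-probe percentile and 0 with the total gene signal, normexp, quantile normalization, no scaling, median centring, spike-in scaling, the authors' table, either slide, brightness as a covariate or the brighter arrays, and ran from 0 to 3 with arrays left out. In males, 1 became 0 with the total gene signal, normexp, any other scaling, the authors' table, either slide or the brighter arrays, and ran from 0 to 1 with arrays left out. Over all miRNAs the 127 calls became 70 with the total gene signal, 48 without scaling, 87 with median centring, 26 with spike-in scaling, 15 in the authors' table, 37 and 47 within the slides, 99 in females alone, 24 in males alone 74 with brightness as a covariate and 61 on the brighter arrays. The share of lower calls was 106 of 127 as reported, 163 of 165 with normexp, 21 of 155 with the all-probe percentile, 38 of 95 with quantile normalization, 36 of 70 with the total gene signal, 27 of 87 with median centring, 10 of 48 without scaling, 10 of 26 with spike-in scaling and 2 of 15 in the authors' table.

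The label's replicate number followed the array's place, with numbers 1 and 2 on slide 1 and numbers 3 and 4 on slide 2. Same-numbered arrays of all groups also shared the row on the slide. Same-numbered arrays of the strains correlated above 0.1 in 4 of 8 pairs, at most 0.53 (male 4). The main tests did not pair them. With replicate number as a block the fit called 2 members and 124 miRNAs, and the ratio of miR-133b to miR-133a had an exact permutation adjusted p of 0.00463. Signal over background limits miR-1* and miR-206.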
